A study of Homo sapiens with 35 samples.

Results

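Heme is made from glycine and succinyl-CoA by a chain of enzymes that begins and ends in the mitochondrion. Aminolevulinate synthase, which exists as a ubiquitous form (ALAS1) and an erythroid form (ALAS2), makes the committed step. Cytosolic enzymes then build and trim the porphyrin ring, and ferrochelatase (FECH) inserts iron. Every cell needs some heme for cytochromes and other proteins, while developing red cells raise the whole pathway to make hemoglobin. The chromatin of 8 genes of this pathway is described here in pathway order: ALAS1, ALAS2, ALAD, UROS, UROD, CPOX, PPOX and FECH. They were chosen by name, and not by a measured value, from 19970 protein-coding genes on chromosomes 1 to 22 and X.

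ATAC-seq maps open chromatin through a transposase that cuts accessible DNA and attaches sequencing adapters to it. It was applied to hematopoietic progenitors grown from the established human embryonic stem cell line H1. The labels cover 35 libraries from day 10 to day 20 (44 are counted in the series' design text), namely 12 doxycycline-treated and 11 untreated libraries named doxee17 (batch 1) and 12 untreated libraries named h1 (batch 2). Doxycycline turns on ectopic MYC, per the series' design text. The labels give neither the promoter nor the clone behind doxee17, and none of the sources used here says whether the h1 libraries carry the MYC construct. The values are a single list of 308732 peaks that names no library. Doxycycline, day and line could therefore not be compared, no replicate error exists, and no test was run. Each fold enrichment is the authors' value at a peak's summit (its highest point) over a background that is the same across the genome. The pooled background was 93.5 overlapping reads or fragments, recovered from the deposited folds and p-values, and the depth of each library is unknown. Ranges in parentheses after a fold are 95% intervals from an exact Poisson count and hold counting error alone.

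Of the progenitor markers, 6 of 8 carried a summit no more than 1 kb from an end, against 83.0% of all coding genes, so this count does not set them apart. RUNX1 was the highest of them at 80.9-fold. The progenitor factors GATA2 and TAL1 had none there, although a summit of 54.9-fold lay at a RefSeq start of GATA2. Of 4 markers each, 3 endothelial (PECAM1 82.9), 3 pluripotency (SOX2 17.6, POU5F1 1.93) and 2 hepatocyte genes (TTR 2.41, ALB none) had one. The pluripotency gene without one, DPPA4, had 20.2-fold at a RefSeq start. These lists are too short to check the label. An open site shows neither expression nor the share of cells that carry it.

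The promoter of the erythroid synthase differed from those of the other genes in its CpG content. Of its motif matches, described below, only TGAGTCA was not shared with another of these genes. The RefSeq promoter table (GRCh38.p14) held 9 starts of 7 of the genes, and UROS had no entry. The 250 bases before the start are shown for 5 genes: the pair of synthases that catalyse the same step, ALAD with the highest peak, CPOX with its GATA matches, and FECH, which had the lowest start after ALAS2. Sequences run 5′ to 3′ on the strand of the gene and end at the base before the start. Capitals mark each match to the motifs searched, on either strand. In ALAD the KLF match and matches to CCAAT on both strands overlap in a single run of capitals.
ALAS1, chr3:52197833-52198082, plus strand: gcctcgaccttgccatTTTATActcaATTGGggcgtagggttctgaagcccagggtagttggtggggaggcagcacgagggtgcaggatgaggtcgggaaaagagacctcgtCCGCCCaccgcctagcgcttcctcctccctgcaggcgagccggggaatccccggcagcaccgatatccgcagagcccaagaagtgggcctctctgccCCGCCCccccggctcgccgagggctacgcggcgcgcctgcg
ALAS2, chrX:55030978-55031227, minus strand: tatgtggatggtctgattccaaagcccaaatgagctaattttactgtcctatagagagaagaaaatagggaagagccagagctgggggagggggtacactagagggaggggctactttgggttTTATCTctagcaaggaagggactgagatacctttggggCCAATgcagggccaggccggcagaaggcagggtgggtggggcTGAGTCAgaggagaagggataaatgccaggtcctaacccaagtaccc
ALAD, chr9:113401285-113401534, minus strand: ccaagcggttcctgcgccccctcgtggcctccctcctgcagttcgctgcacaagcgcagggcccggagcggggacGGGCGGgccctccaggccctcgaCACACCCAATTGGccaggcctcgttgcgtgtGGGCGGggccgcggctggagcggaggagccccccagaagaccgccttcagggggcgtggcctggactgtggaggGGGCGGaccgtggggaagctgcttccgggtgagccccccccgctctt
CPOX, chr3:98593612-98593861, minus strand: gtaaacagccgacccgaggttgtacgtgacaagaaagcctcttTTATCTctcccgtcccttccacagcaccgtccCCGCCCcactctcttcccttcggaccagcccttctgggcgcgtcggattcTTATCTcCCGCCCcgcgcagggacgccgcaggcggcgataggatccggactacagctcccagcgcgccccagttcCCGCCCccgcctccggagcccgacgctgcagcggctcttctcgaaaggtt
FECH, chr18:57586703-57586952, minus strand: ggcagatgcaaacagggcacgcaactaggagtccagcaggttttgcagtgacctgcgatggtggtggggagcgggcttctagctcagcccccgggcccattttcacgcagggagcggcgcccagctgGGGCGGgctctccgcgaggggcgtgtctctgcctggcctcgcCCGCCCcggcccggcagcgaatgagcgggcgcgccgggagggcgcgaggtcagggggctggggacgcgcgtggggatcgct

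Matches were counted in the 250 bases before each of 22131 starts of coding genes, on both strands. AGATAA, a form of the site bound by GATA factors, lay before ALAS2 (bases -127 to -122 from the start), in 2 copies before CPOX (-207 to -202 and -125 to -120) and before the second start of PPOX, and before 7.09% of all starts. TGATAA lay before none of the 9 starts and before 4.93% of all. TGAGTCA, the core shared by AP-1 and NFE2 factors, lay before ALAS2 alone among these genes (bases -47 to -41), and before 3.45% of all starts. GGGCGG, a site of SP factors, lay before 7 of the 9 starts, the exceptions being ALAS2 and the first start of PPOX, and before 53.7% of all. The windows before the ALAD starts overlap and share a GGGCGG site, so they are not separate. The ratio of observed to expected CpG, given below, was at least 0.6 at 8 of the 9 starts, while the 53.7% is over starts of any ratio. CACACCC, a KLF site, lay before ALAD and the second start of PPOX (7.01% of all starts). CCAAT lay before ALAS1, ALAS2, ALAD and the first start of PPOX (32.7%), and TATAAA before ALAS1 only (9%), in reverse and far from the start. CACGTG, the E-box that MYC and MAX can bind, had no match before any of the 9 starts (7.37% of all), nor had the longer NFE2 and MAF site (0.0949%) or the NRF1 site (1.28%). A match is a description of these letters and not evidence of binding.

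Strong peaks stood at the starts of the genes other than the erythroid synthase, whose start had a weak one. A start, or for UROS the higher-coordinate end, carried a summit of 71.8 to 212-fold in 7 of the 8 genes, while the start of ALAS2 carried 1.77-fold. Among genes in the promoter table, 6 of 7 had at least 50-fold at a start, against 52.1% of all coding genes with a start there, and 7 of 7 had any summit, against 81.7%. Counting either end of a gene, 8 of 8 had a summit within 1 kb (83.0% of all coding genes) and 6 of 8 had at least 100-fold (29.2%). The median of the highest fold at an end was 121 over the 8 genes and 43.5 over all coding genes, counting 0 for a gene without a summit. No test was made of these counts.

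**Figure D1:**
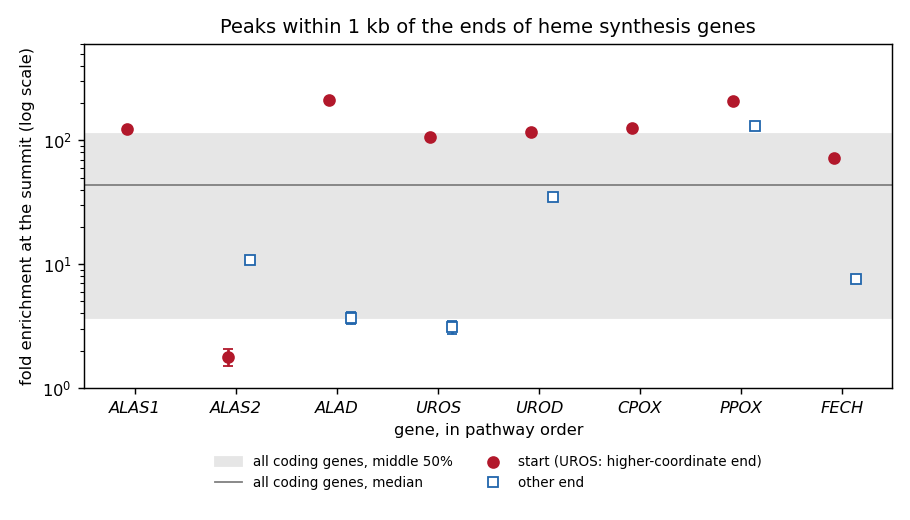
Fold enrichment (log scale) of each peak with its summit within 1 kb of an end of the 8 genes, in pathway order; filled circles are starts, open squares the other end, bars the exact Poisson 95% interval, and the grey band and line the middle 50% and the median of the highest end value over all coding genes. ALAS2 is the only gene whose other end, at 10.8-fold, stands above its start, at 1.77-fold.

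The synthases that open the pathway stood far apart. ALAS1 (chromosome 3, 52198083 to 52214327) had a summit of 124-fold (122 to 127) 18 bases before its start. This summit exceeded the highest start value of 76.5% of coding genes in the promoter table. ALAS2 (chromosome X, 55009055 to 55030977) had at its start a peak of 335 bp (55030983 to 55031317) at 1.77-fold (1.51 to 2.06), with its summit 205 bases before the start. The fold at ALAS1 was 70.5 times that at ALAS2, and the intervals lay far apart. Still, 18.3% of coding genes in the promoter table had no summit at any start. The highest start value of 19.2% of these genes was at or below that of ALAS2.

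ALAS1 lay wholly inside a single peak of 27010 bp (52194108 to 52221117), so 100% of the gene was covered, against a median of 12.6% over coding genes. Of the 308732 peaks, 11 were at least that wide, this peak included. The fold of this peak is that of its summit at the start and does not describe the rest of its width. Upstream, a 7049-bp peak (52180828 to 52187876) reached 77.2-fold at 15.8 kb before the start, and a 3985-bp peak (52188179 to 52192163) 30.9-fold at 8.83 kb. Beyond the other end of the gene, a 7279-bp peak (52243478 to 52250756) reached 60.4-fold at 30.1 kb. Peaks at ends of the neighbouring genes POC1A (139-fold), TLR9 (34.9), TWF2 (101) and WDR82 (150) lay within the same 50 kb and were counted apart.

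Peaks inside ALAS2 and at its start were all under 5-fold, where the median of the whole peak list was 3.46-fold. Inside the gene lay 3 summits, of 3.79-fold at 2.73 kb, 3.89-fold at 15.8 kb and 3.50-fold at 19.5 kb from its start. Each of these exceeded the peak at the start, and their intervals overlap one another (3.41 to 4.20, 3.51 to 4.31 and 3.14 to 3.90). Introns of ALAS2 are known to hold erythroid enhancers bound by GATA1, but the annotation used gives no exons, so these peaks were not placed in introns. The summit at 2.73 kb also lay within 1 kb of an annotated end of PAGE2B, a gene whose range overlaps ALAS2. At the far end of ALAS2, a 1745-bp peak reached 10.8-fold (10.2 to 11.5) and lay at an end of APEX2, a DNA repair nuclease gene, as well. Only 4 distal peaks lay within 50 kb, the highest at 6.44-fold. An autosomal median of 46.9-fold at gene ends compares with 10.9-fold over 848 coding genes of the X chromosome, which holds ALAS2 alone of the 8. Of X-linked coding genes in the promoter table, 30.9% had their highest start value at or below that of ALAS2. The part of the chromosome in the ALAS2 value was not tested.

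CpG content separated the ALAS2 start from the rest. The ratio of observed to expected CpG in the 250 bases before the start was 0.0646 at ALAS2 and at least 0.643 at the other 8 starts, up to 1.07 at CPOX. Over all coding genes, 8802 starts under a ratio of 0.6 had a median of 2.32-fold and 56.4% had a summit, against 88.8-fold and 91.9% for 13329 starts at or above it. The ALAS2 value was low against all starts. Of the CpG-poor ones, 45.9% were at or below it (54.5% of the 481 on the X chromosome, where 46.6% had a summit). Nearly all of those at or below it had no summit and count as 0. Among CpG-poor starts that had a summit, the ALAS2 value was therefore near the lowest. ALAS1 (ratio 0.780), ALAD (0.643), UROD (0.687), CPOX and PPOX (0.933 at its first start) lay above the median of all starts of like CpG content, as did ALAS2, where that median was 0. FECH (0.815) lay below it, at 71.8 against 92.4-fold. Starts of a gene share their peak, and CpG content goes with GC content and with gene class, whose parts were not tested.

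**Figure D2:**
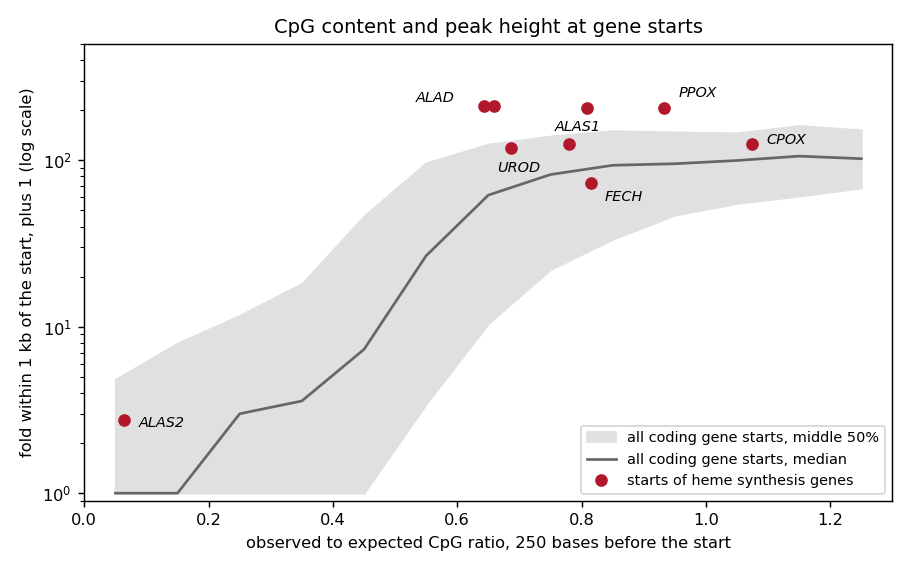
Highest fold within 1 kb of a start, plus 1 (log scale), against the observed to expected CpG ratio of the 250 bases before it; red points are the 9 starts of 7 heme synthesis genes, the line and band the median and middle 50% of 22131 coding gene starts in steps of 0.1. ALAS2 stands at the far left at 1.77-fold and the other starts at 71.8-fold or more.

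The genes of the enzymes that assemble the ring had their highest peaks at an end. ALAD, which joins aminolevulinate molecules to porphobilinogen (chromosome 9, 113386312 to 113401284), had the highest value of the 8 genes. Its 1342-bp peak (113400689 to 113402030) reached 212-fold (209 to 215), above the highest end value of 94.8% of coding genes. ALAD has 2 RefSeq starts in the table, and this summit lay at base -141 from the outer of them and -305 from the inner. A pair of peaks of 7.45 and 6.56-fold followed inside the gene at 2.97 and 3.91 kb, and the far end had 3.67-fold. Around ALAD, a 2634-bp distal peak of 40.5-fold (113378606 to 113381239) lay 6.68 kb beyond the far end. The peaks upstream at 5.78 and 9.32 kb (28.1 and 168-fold) lay at ends of POLE3, a DNA polymerase subunit gene, and the latter at an end of C9orf43 as well.

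UROS, which closes the ring as uroporphyrinogen III (chromosome 10, 125784980 to 125823258), had 106-fold (104 to 108) at its higher-coordinate end. That 3646-bp peak (125820676 to 125824321) lay at an end of BCCIP too, so it cannot be assigned to either gene. Inside UROS, 6.66 kb from that end, a 1948-bp peak (125815249 to 125817196) reached 16.3-fold (15.5 to 17.1), and the other 3 summits inside stayed at or under 4.37-fold. The human gene is known to have a separate erythroid promoter within its length, which was not located here. UROS and ALAS2 were the 2 genes with every distal summit under 10-fold, and the highest of 12 at UROS was 6.59-fold. The highest distal fold was lower than that of UROS in 9.13% of coding genes, and lower than that of ALAS2 in 8.91%. The share of coding genes under 10-fold was not counted.

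UROD, which decarboxylates uroporphyrinogen (chromosome 1, 45012254 to 45015575), is the shortest of the 8 genes at 3322 bp, and 70.7% of it lay under peaks. A 3052-bp peak over its start (45010264 to 45013315) reached 117-fold (115 to 119) and also lay at an end of HECTD3. A separate peak of 35.2-fold (34.0 to 36.4) stood within 1 kb of the other end. The nearest strong distal peak, 23.4-fold, lay 3.27 kb beyond the gene and inside ZSWIM5.

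The oxidases differed in where their other peaks lay. CPOX, a mitochondrial oxidase of coproporphyrinogen (chromosome 3, 98570488 to 98593611), had 125-fold (123 to 127) at its start under a 3434-bp peak (98592114 to 98595547). This interval overlaps that of ALAS1. Inside CPOX lay 8 peaks, or 3.79 per 10 kb away from its ends. The median was 1.37 over the 18065 coding genes with an interior of 1 kb or more, and 10.4% of those had more than CPOX. The highest of the 8 peaks inside CPOX (98583483 to 98586348) reached 32.7-fold (31.6 to 33.9) at 8.14 kb from the start, while 5 were under 5-fold. Distal peaks of 17.6 and 25.2-fold stood 3.54 and 8.69 kb upstream, and a pair of 38.8 and 38.5-fold lay 14.1 and 16.5 kb beyond the far end. CPOX had the most distal peaks of the 8 genes, 24.

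PPOX, the oxidase that makes protoporphyrin IX (chromosome 1, 161165728 to 161178013), had high peaks at both ends. The 1888-bp peak at its start (161165564 to 161167451) reached 206-fold (203 to 209), with its summit 108 bases before the first of its 2 RefSeq starts, and lay at an end of USP21 as well. At the far end, a 1812-bp peak of 132-fold (129 to 134) lay at an end of B4GALT3 too. Only a 2.70-fold summit lay between them. Distal peaks of 75.5-fold (161184944 to 161186647) and 40.2-fold (161192289 to 161193497) lay 7.47 and 14.7 kb beyond PPOX, inside ADAMTS4. They are not the highest distal peaks around PPOX, and which gene they serve was not tested. PPOX is in a gene-dense stretch, with 10 peaks at ends of other coding genes within 50 kb, up to 273-fold at TOMM40L.

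FECH, which inserts iron into protoporphyrin (chromosome 18, 57544377 to 57586702), had the lowest start after ALAS2. Its 1819-bp peak (57585504 to 57587322) reached 71.8-fold (70.1 to 73.6), 40.7 times the ALAS2 start. This was above the highest start value of 55.9% of coding genes in the promoter table. The interval of the FECH start overlaps none of those at the starts of the other genes. FECH held the most peaks inside, 9 over 42326 bp, and 4 of them were above 10-fold. A 1506-bp peak of 23.9-fold (22.9 to 24.9) and a 1437-bp peak of 37.0-fold (35.8 to 38.2) lay 3.22 and 5.26 kb inside from the start. Narrow peaks of 12.3-fold (477 bp) and 17.2-fold (519 bp) followed at 24.7 and 28.6 kb. The highest distal peak, 97.0-fold (57629665 to 57630922), lay 43.6 kb upstream and beyond a peak at an end of NARS1 (162-fold).

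**Figure D3:**
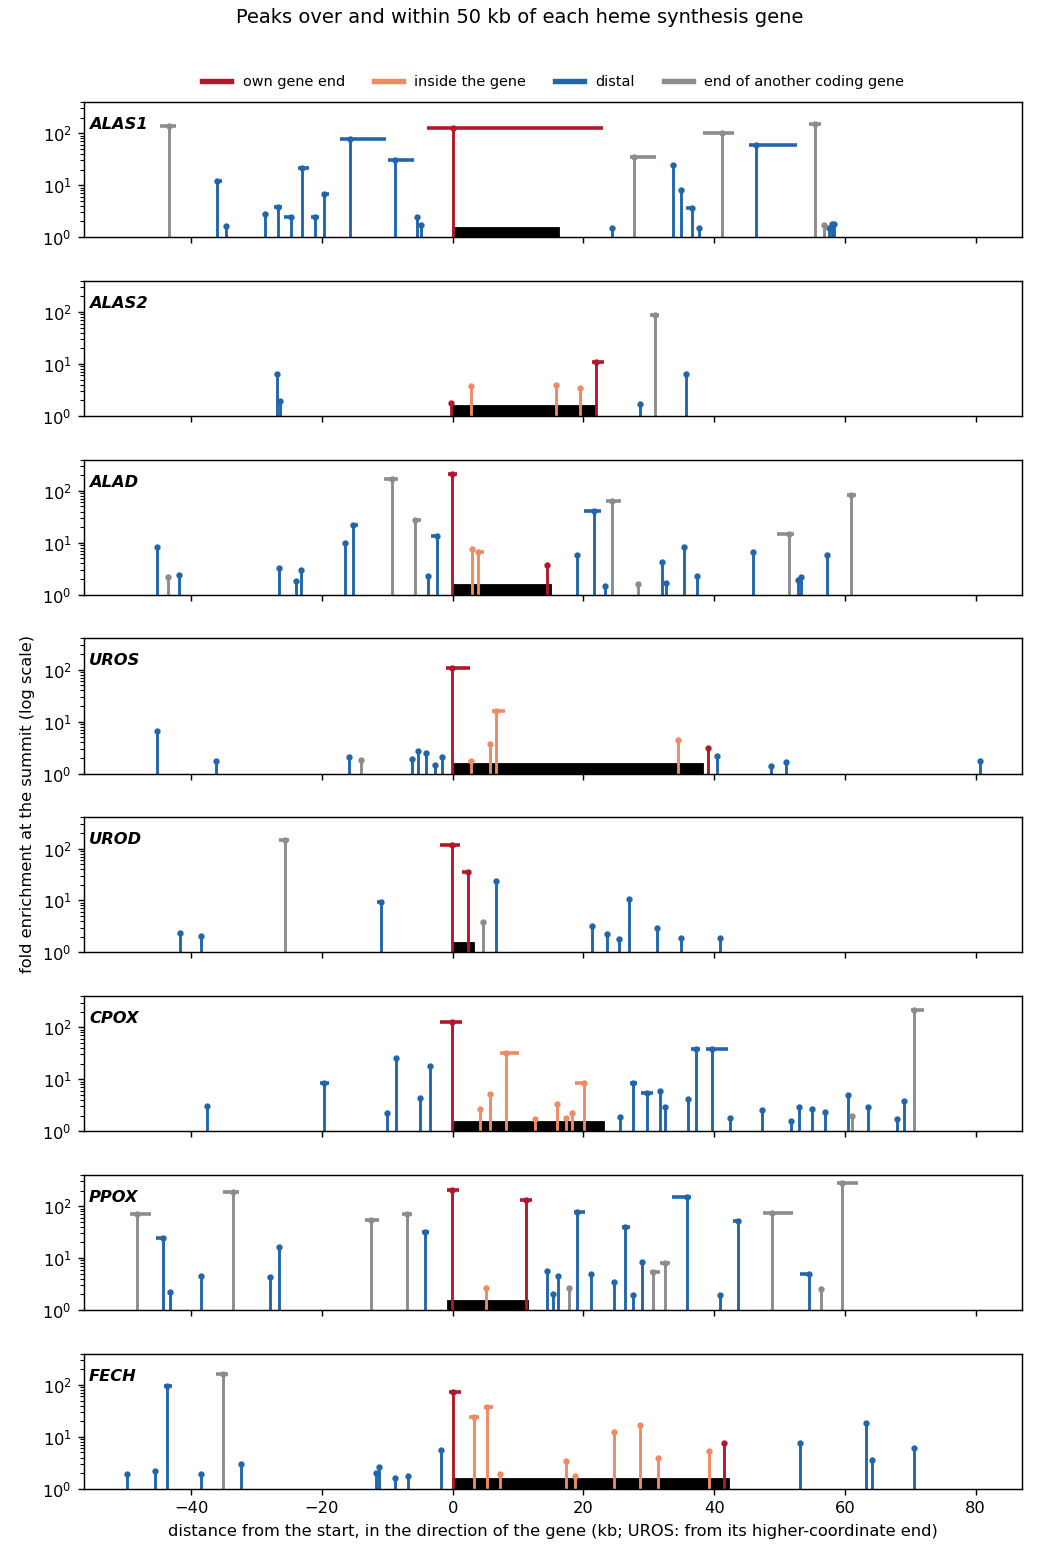
Every peak over and within 50 kb of the 8 genes, by the distance of its summit from the start in kb (for UROS, from its higher-coordinate end) and its fold (log scale); colours give own ends, inside, distal and ends of other coding genes, horizontal lines the width of peaks from 1 kb, and black bars the genes. ALAS1 lies under its 27010-bp peak, FECH and CPOX hold peaks inside, and no peak inside or at an end of ALAS2 passes 10.8-fold.

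Inside the genes and in their flanks, most counts were near those of all coding genes. All 8 have an interior of at least 1 kb, and 6 of 8 had a summit there, against 84.3% of coding genes with such an interior. CPOX and FECH were the 2 of 8 with at least 20-fold inside, against 38.0%. ALAS1 and UROD, the genes most covered by peaks, had none. A distal summit of at least 20-fold lay around 6 of 8 genes (69.6% of coding genes) and one of at least 50-fold around 3 of 8 (34.6%), namely ALAS1, PPOX and FECH. The number of distal peaks ran from 4 at ALAS2 to 24 at CPOX, with a median of 16.5, against 14 over all coding genes. Of the 125 distal peaks 63.2% were under 5-fold, as were 59.3% of the 27 peaks inside, against 62.2% of the whole list. Of the 14 peaks at the ends of these genes, 21.4% were, near the 27.6% of 29 peaks at ends of neighbouring coding genes. The highest end summit also lay at an end of another coding gene in 4 of 8 (ALAS2, UROS, UROD and PPOX), against 22.6% of coding genes with a summit.

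Other genes of heme metabolism were set beside these by the highest fold at an end. In the 4 further lists, 26 of 26 genes had a summit at an end (83.0% of all coding genes), 23 exceeded the median of all coding genes and 11 reached 100-fold (29.2%). The 8 genes of mitochondrial transport and synthase cofactors had a median of 127-fold. ABCB10, a mitochondrial transporter needed for heme synthesis in red cells, was highest (205) and ABCB6, another transporter of the same family, lowest (71.0). SLC25A38, the glycine carrier whose loss causes an anaemia like that of ALAS2, had 126-fold. The 7 genes of heme export and trafficking had 62.2-fold, from ABCG2 (5.68) to the heme chaperone PGRMC2 (214), the 6 of breakdown and sensing 86.3-fold, from BLVRA (28.4) to BLVRB (243), and the 5 of heme use in the respiratory chain 77.8-fold, from HCCS (60.4) to CYC1 (142).

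Beside genes with related roles, the 8 genes stood with metabolic lists rather than with structural proteins of the red cell by their medians, with no test of the difference. The 12 iron uptake and storage genes had a median of 120-fold (TFR2 22.4, GLRX5 309) and the 18 glycolysis enzymes 104-fold (HK1 without a summit, PKLR 235). The 12 red cell membrane genes had 11.9-fold (EPB41 without a summit, RHCE 153). The ALAS2 value of 10.8 lay near that median, but it stands at the far end, which is also an end of APEX2. The start of ALAS2 had 1.77-fold. EPB41 and HK1 had 138 and 99.3-fold at a RefSeq start that lies away from the outermost ends of the gene, so the end value understates such genes. It can also overstate, since PKLR had no summit and RHCE 17.3-fold at a RefSeq start. For the 6 heme synthesis genes with a start in the table other than ALAS2, the start and end values were the same.

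**Figure D4:**
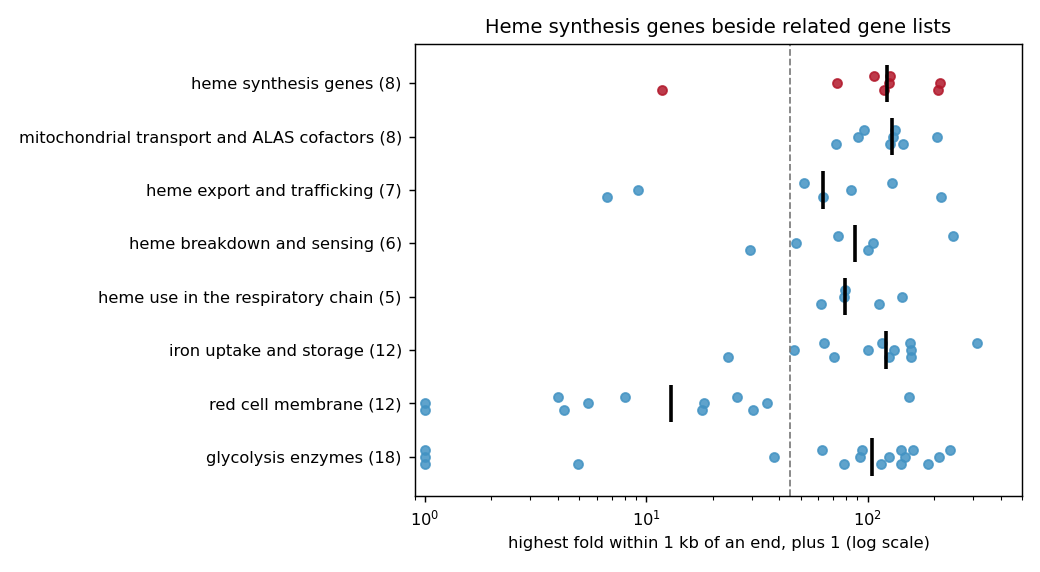
Highest fold within 1 kb of an end, plus 1 (log scale), for each gene of 8 lists, with black bars at the list medians and a dashed line at the median of all coding genes; genes without a summit stand at 1. Of the heme synthesis genes only ALAS2 lies left of the dashed line, while red cell membrane genes lie mostly left of it.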

How the data were processed

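Libraries were made from 50000 cells each with 45 minutes of transposition and read as paired ends of 75 nucleotides, per the labels' protocols. The submitters' processing notes name Picard 2.2.4, Bowtie2 2.2.8 and Trim Galore 0.6.5, and the peak names name MACS 2.1.0, GRCh38 and GENCODE 36, per the file. Filters, read shifting and the libraries pooled are not given in the sources used here. The authors deposited per peak a fold enrichment (a linear ratio), a −log10 p-value, a −log10 q-value and a score. The q-value and score were not used. A uniform background was recovered from fold and p, after which 100% of 243638 pileups under 1000 were whole within 0.1; it corrects for neither copy number nor mappability, which can raise or lower folds.

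Genes, ends and starts came from RefSeq tables of GRCh38.p14 without exons. Summits within 1 kb of a gene end were end peaks, others in the gene inside peaks, and those outside it within 50 kb and over 1 kb from every coding gene end distal. Percentiles are shares of coding genes with lower values. Members were named by pathway and not by a value, but they and the lists, motifs and rules were chosen with earlier results of these data known. All 8 members were named, with the highest and lowest gene of each other list and the genes whose ends share a counted summit; further neighbours, SLC25A38 and markers were named after their values were seen. Some genes and results are not reported here. Counting was tested on simulated data. Python 3.11.15, numpy 2.4.6, pandas 2.3.3, scipy 1.17.1 and matplotlib 3.10.9 were used.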

Additional observations from a re-analysis of the deposited data

How the results depend on the processing

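The count of genes with an end peak (8) and their median end fold (121) were the same with windows of 0.5 and 2.5 kb, with any overlap of at least 1 bp and with the more significant 50% of the peaks. With the more significant peaks, ALAS2 was counted through its far-end peak of 10.8-fold, which is also at an end of APEX2. Its start peak of 1.77-fold is under the list median of 3.46-fold, and summits at starts were not recounted with this setting. The median over all coding genes, 43.5 as reported, was 27.9, 55.3, 56.1 and 43.5 under these settings. The share of all coding genes with an end peak, 83.0% as reported, was 72.6, 90.5, 87.6 and 75.5% under the same settings. Using RefSeq starts only (7 genes, chosen after seeing the data), the median was 124, and the ALAS2 value fell from 10.8 to 1.77-fold. With 0.5 kb windows PPOX had 132 in place of 206-fold, since its start summit lies farther from the annotated end. Peaks inside the genes numbered 36 by overlap and 18 with the more significant peaks, against 27. The median number of distal peaks was 8 with the more significant peaks, 8.5 within 20 kb and 31.5 within 100 kb, against 16.5, while the median over all coding genes was 7, 5 and 29 in place of 14. Counting summits at other genes' ends gave 20.5. No paired analysis was possible because the list holds no value per library; for the same reason no library could be left out. Weak peaks depend on the summed depth of the pool, and ALAS2's start peak rests on 166 overlapping reads or fragments.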
